A study of Mus musculus with 16 samples.

Results

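The 33 genes described here carry cholesterol synthesis, uptake and efflux, and they were measured by RNA sequencing in mice given IL-23 or its vehicle. They were chosen by symbol from a count table of 26357 genes, by a rule that reads no measured value but was set with earlier results of these data known, and all 33 passed the count filter that left 14671 genes for testing. Of these, 18 encode enzymes of the synthesis chain, 4 encode the SREBP transcription factor and its retention machinery, 5 serve uptake, the lysosome and transfer within the cell, and 6 serve efflux, storage and the oxysterol-sensing LXR receptors. IL-23 is the cytokine that sustains IL-17-producing lymphocytes, and the study's title concerns psoriasis-like dermatitis in the mouse.

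The 16 libraries fall into 4 groups of 4, in which mice had IL-23 or its vehicle and, besides, a compound-free dosing vehicle labelled 0 mpk by 1 of 2 routes. That vehicle went by mouth in the oral groups and into the peritoneum in the intraperitoneal groups, so all 16 samples share it. Strain, sex, age, tissue, IL-23 dose and day of harvest are not named in the labels used here. The number that opens each sample's title is used as its library number. No label says whether libraries came from separate animals, so p-values measure the spread between these libraries.

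Cells build cholesterol from acetyl-CoA through mevalonate and squalene. When sterol in the endoplasmic reticulum is low, SCAP carries SREBP-2, the product of Srebf2, to the Golgi, where it is cut into a factor that turns on the synthesis genes and receptors for lipoproteins. When sterol is high, INSIG proteins hold SCAP back, while oxysterols activate the LXR receptors, which turn on the export pumps ABCA1 and ABCG1. In skin, sebaceous glands and the epidermis both make sterols, and cholesterol is one of the barrier lipids of the cornified layer.

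Control sequences at the starts of the synthesis genes are shown first, because SREBP is known to act there together with the CCAAT-binding factor NF-Y and with Sp1. RefSeq windows on GRCm38.p6, from 250 bases before to 50 bases after an annotated start, were found for 27 of the 33 genes. These were 35 windows, because some genes had more than 1. A gene counted as holding a motif when any of its windows did. Below, capitals mark CCAAT or its reverse complement ATTGG and, in Hmgcs1 alone, the sterol element. The 4 windows printed are written 5′ to 3′ on the gene's strand. They were picked after their values were seen, to show an enzyme gene with a sterol element match (Hmgcs1, chr13:119690101-119690400, plus strand), a pair that rose (Mvk, chr5:114444019-114444318, plus strand, and Ebp, chrX:8193463-8193762, minus strand) and 1 that fell (Msmo1, chr8:64733529-64733828, minus strand).
Hmgcs1: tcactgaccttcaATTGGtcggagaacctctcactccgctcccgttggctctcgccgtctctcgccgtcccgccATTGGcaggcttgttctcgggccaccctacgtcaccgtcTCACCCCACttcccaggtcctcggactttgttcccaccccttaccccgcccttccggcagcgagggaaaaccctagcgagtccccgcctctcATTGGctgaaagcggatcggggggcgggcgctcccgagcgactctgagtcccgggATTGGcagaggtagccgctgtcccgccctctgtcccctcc
Mvk: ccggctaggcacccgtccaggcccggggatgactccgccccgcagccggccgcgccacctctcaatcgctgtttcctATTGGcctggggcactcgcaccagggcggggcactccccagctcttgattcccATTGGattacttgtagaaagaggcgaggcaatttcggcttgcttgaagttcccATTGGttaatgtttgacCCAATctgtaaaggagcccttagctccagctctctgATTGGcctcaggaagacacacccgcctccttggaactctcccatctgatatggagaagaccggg
Ebp: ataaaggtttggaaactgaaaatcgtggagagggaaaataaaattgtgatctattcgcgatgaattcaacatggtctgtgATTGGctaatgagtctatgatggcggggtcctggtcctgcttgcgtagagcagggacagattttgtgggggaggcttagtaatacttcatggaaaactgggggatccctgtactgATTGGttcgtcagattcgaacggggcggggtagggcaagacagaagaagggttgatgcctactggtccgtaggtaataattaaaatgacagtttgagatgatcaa
Msmo1: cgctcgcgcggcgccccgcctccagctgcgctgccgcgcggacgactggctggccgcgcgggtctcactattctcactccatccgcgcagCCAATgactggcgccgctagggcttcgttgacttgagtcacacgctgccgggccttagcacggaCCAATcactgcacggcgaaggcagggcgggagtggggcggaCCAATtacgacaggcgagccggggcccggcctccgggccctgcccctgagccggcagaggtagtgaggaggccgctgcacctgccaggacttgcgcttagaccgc
The sterol regulatory element was searched as TCACNCCAC on both strands and matched in 1 of the 27 genes, Hmgcs1, at 137 to 129 bases upstream of the start, against 1.46% of the 10730 protein-coding genes that were tested and have a window. CCAAT was found on either strand in 21 of the 27 genes and in 14 of the 15 synthesis enzymes with a window, against 42.2% of those 10730 genes. GGGCGG, the GC box bound by Sp1, was found in 23 of 27 and in 14 of 15, against 66.3%. None of the 42 CCAAT matches in these windows overlapped another searched motif. Only exact matches to each pattern were counted, so a gene without a match may still hold a variant of that motif. The LXR element, searched as AGGTCA, then any 4 bases, then AGGTCA, matched in 0 of the 27 genes and in 0.0% of the 10730. Mvk and Ebp, which rose, and Msmo1, which fell, all hold CCAAT, in 5, 2 and 3 copies.

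Cholesterol genes moved in both directions under IL-23, in each route and within each of the 5 role groups. In oral mice 9 of 33 rose and 13 fell, so that 66.7% were called, against a background of 63.3% of all genes tested (29.2% higher and 34% lower). In intraperitoneal mice 11 rose and 10 fell, or 63.6%, against a background of 61.7% (30.8% higher and 30.9% lower). The share called was therefore near that of all genes. The median log2 fold change of the 33 was -0.09 in oral and -0.08 in intraperitoneal mice, against -0.06 and -0.02 over all genes. A gene is called here below an adjusted p of 0.05 (edgeR quasi-likelihood test, Benjamini-Hochberg method, all 14671 genes), and ± after a log2 fold change is its standard error (SE).

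The 2 routes have separate controls, and 9 of the 33 genes rose in both while 8 fell in both, against a background of 53.3% of all genes called the same way in both (25.9% higher and 27.4% lower). Those that rose in both were Mvk, Pmvk, Fdps, Ebp, Sc5d, Srebf2, Npc2, Abcg1 and Ch25h. Those that fell in both were Acat2, Msmo1, Hsd17b7, Insig1, Vldlr, Abca1, Soat1 and Nr1h3. A further 5 were called in oral mice alone (Hmgcs1, Lss, Nsdhl, Lipa and Npc1), 4 in intraperitoneal mice alone (Fdft1, Sqle, Tm7sf2 and Insig2) and 7 in neither. None of the 33 genes was called in opposite directions, against 2 of all 14671 genes tested. All 8 IL-23 libraries lay above all 8 vehicle libraries for 5 genes (Ebp, Sc5d, Srebf2, Npc2 and Ch25h) and under them for 5 (Acat2, Msmo1, Vldlr, Abca1 and Nr1h3), and 38.3% of all genes were so separated (19% higher and 19.2% lower). Within a route the groups did not overlap for 16 of the 33 genes in oral mice (background 59.7%) and for 13 in intraperitoneal mice (background 51%). The IL-23 effect itself was not called different between routes for any of the 33 genes (smallest edgeR adjusted p = 0.875, 0 genes at an unadjusted p under 0.05, and 0 by DESeq2 and by limma-voom), so a call in 1 route alone does not show that the routes differ. Over all genes, 0 of 14671 (0%) differed between routes by the same test and 796 (5.43%) had an unadjusted p under 0.05.

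**Figure D1:**
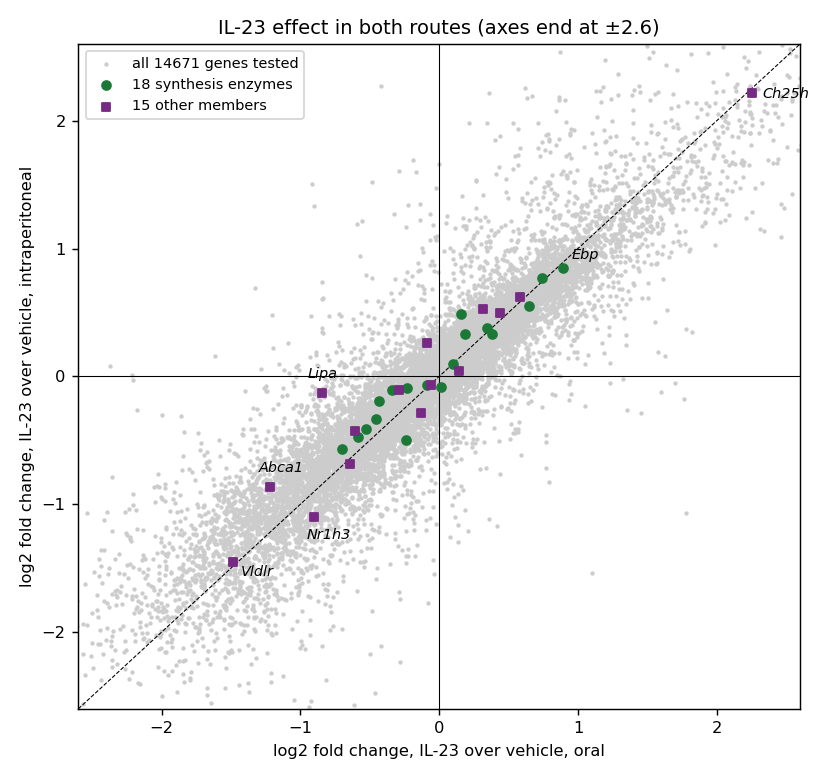
Log2 fold change of IL-23 over vehicle in oral mice (horizontal) against intraperitoneal mice (vertical), for all genes tested (grey), the 18 synthesis enzymes (green circles) and the 15 other members (purple squares), with a dashed line where the routes are equal and axes ending at 2.6. Enzymes lie between -0.703 and 0.889 in oral mice, and Ch25h, Vldlr, Abca1 and Nr1h3 lie farther out.

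Directions are relative to TMM scaling, which sets each library's size from the bulk of its genes. Plain library size moved the all-gene median by -0.20 in oral and -0.21 in intraperitoneal mice. The members' split then became 6 higher and 18 lower in oral mice and 8 higher and 17 lower in intraperitoneal mice, while that of all calls went from 46.2% to 31.0% higher in oral mice and from 49.9% to 31.5% in intraperitoneal mice. The members newly called lower in oral mice were Mvd, Tm7sf2, Insig2, Stard4 and Nr1h2. In intraperitoneal mice they were Mvd, Hmgcs1, Lss, Nsdhl, Npc1, Nr1h2 and Scap. Ratios of a pair of genes within a library, given below, do not depend on the choice of scaling.

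Depth ran from 6381990 to 14432930 counts per library. The libraries were bulk samples, in which fewer cells of a type and less RNA per cell cannot be told apart. Library 28 of the IL-23 intraperitoneal group stood apart on the second principal component, at -62.5 against -14.1 to 20.9 in the other 15, and the calls of the 33 genes that change without it are given below with and without it. Marker lists were read over the mean of both routes, where 73.6% of all genes were called. Of the 8 epidermal keratinocyte markers 7 rose and 1 fell over both routes, and their summed level was 22165 to 30016 CPM (counts scaled to a common library size with TMM factors) in vehicle oral, 46703 to 52836 in IL-23 oral, 24808 to 28541 in vehicle intraperitoneal and 36772 to 67233 in IL-23 intraperitoneal libraries. Of 9 sebaceous gland markers 6 fell and 1 rose, with sums of 4312 to 6324, 3094 to 3769, 3854 to 6459 and 2375 to 3802 CPM in the same order. All 8 adipocyte markers fell by the same mean over both routes, with sums of 383 to 445, 137 to 187, 279 to 441 and 124 to 209 CPM, and so did all 8 skeletal muscle markers, with sums of 3306 to 5783, 1217 to 2348, 2644 to 3516 and 1489 to 1656 CPM. Of 9 macrophage markers 5 rose and 1 fell, with sums of 151 to 273, 206 to 356, 202 to 249.5 and 223 to 893 CPM. All 7 tested neutrophil markers rose, with sums of 7.40 to 33.0, 97.7 to 233, 6.41 to 22.6 and 78.9 to 165 CPM, and the eighth, Mrgpra2a, had 0 counts in every vehicle library and lay under the count filter. These marker levels move with the agent, and their part in the changes below was not tested.

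**Figure D2:**
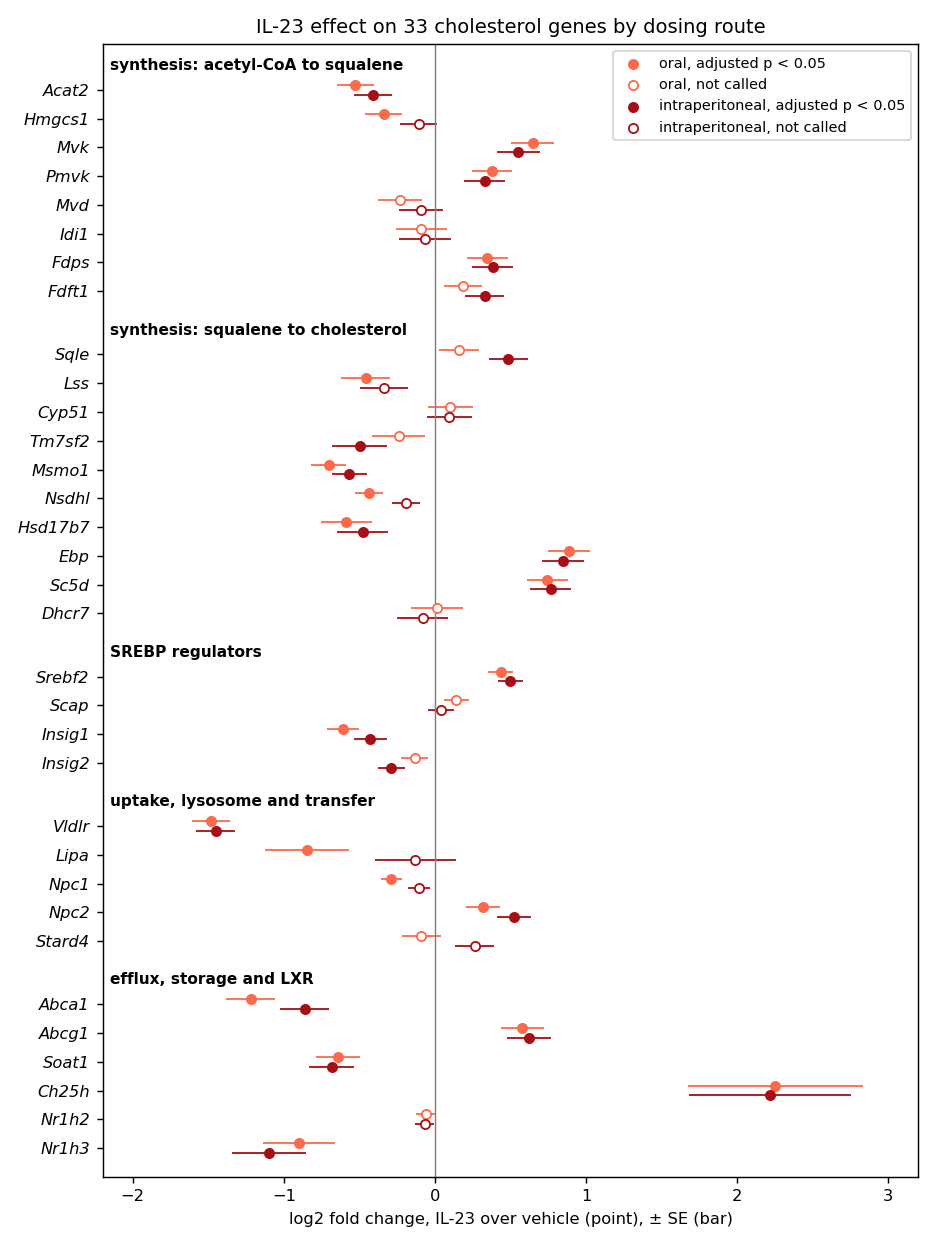
Log2 fold change of IL-23 over vehicle for each of the 33 genes (point) with its standard error (bar), in pathway order within 5 role groups, for oral (light) and intraperitoneal (dark) mice, where filled points passed an adjusted p of 0.05. Both rises and falls occur along the synthesis chain, often in runs of neighbouring genes. In oral mice Acat2 was at -0.53, Mvk at 0.65, Msmo1 at -0.70 and Ebp at 0.89.

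In the first stretch of synthesis, from acetyl-CoA to squalene, 3 of 8 genes rose and 2 fell in oral mice, and 4 rose and 1 fell in intraperitoneal mice. Acat2 (ID 110460, chromosome 17, 12943042 to 12960725), whose enzyme joins 2 acetyl-CoA units, had 131, 125, 158 and 105 CPM in the vehicle oral libraries and 91.3, 96.7, 81.2 and 91.0 CPM in the IL-23 oral libraries. In the intraperitoneal groups it had 103, 136, 109 and 120.1 CPM with vehicle and 91.5, 69.7, 93.1 and 97.8 CPM with IL-23. No IL-23 library reached the lowest vehicle library in either route. Its log2 fold change was -0.53 ± 0.12 in oral mice (edgeR adjusted p = 0.00145) and -0.41 ± 0.12 in intraperitoneal mice (edgeR adjusted p = 0.00904). Acat2 has a near-identical neighbour, Acat3, and how reads mapping to both were counted is not given in the sources used here, so its value is uncertain. Positions here and below are RefSeq's on GRCm38.p6.

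Mvk (ID 17855, chromosome 5, 114444264 to 114460591), which encodes mevalonate kinase, the enzyme that phosphorylates mevalonate, went the other way. It had 93.8, 87.2, 91.1 and 68.6 CPM in vehicle oral and 139.6, 128, 138 and 128 CPM in IL-23 oral libraries. In the intraperitoneal groups the values were 69.4, 102, 74.9 and 83.2 CPM with vehicle and 154, 90.8, 111 and 128 CPM with IL-23. The oral groups did not overlap, and in the intraperitoneal groups IL-23 library 28, at 90.8 CPM, fell below vehicle library 50. For Mvk the fitted log2 fold changes were 0.65 ± 0.14 (edgeR adjusted p = 0.000877) and 0.55 ± 0.14 (edgeR adjusted p = 0.00326).

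The kinase that acts next, encoded by Pmvk, rose from 141 ± 19.6 to 183 ± 8.60 CPM in oral mice (SD, n = 4 each, edgeR adjusted p = 0.0214) and from 141 ± 25.2 to 177 ± 30.7 CPM in intraperitoneal mice (edgeR adjusted p = 0.0427). Fdps, whose product makes farnesyl diphosphate, rose from 159 ± 26.5 to 202 ± 10.3 CPM (edgeR adjusted p = 0.0347) and from 151 ± 17.7 to 196 ± 40.0 CPM (edgeR adjusted p = 0.0227). Neither rise passed with plain library size in either route, and both intraperitoneal calls, with the oral call of Fdps, were also lost with upper-quartile scaling. A fit of the intraperitoneal groups alone ended both intraperitoneal calls too. The oral call of Pmvk was lost without vehicle library 51, and its intraperitoneal call without any of 8 single libraries (vehicle 4, 27, 49, 59 or 67 or IL-23 25, 31 or 61). For Fdps the oral call was lost without vehicle library 4, 27 or 51 or IL-23 library 14, 24 or 26, and the intraperitoneal call without vehicle library 49 or 67 or IL-23 library 25. Fdft1, which encodes squalene synthase, rose in intraperitoneal mice, from 123 ± 8.95 to 155 ± 27.0 CPM (edgeR adjusted p = 0.0332). Its oral log2 fold change was 0.18 ± 0.13 (edgeR adjusted p = 0.215). The intraperitoneal call of Fdft1 was lost with plain library size, with upper-quartile scaling and without vehicle library 49 or 67 or IL-23 library 25, 31 or 61. Its span overlaps that of Ctsb by 774 bases, and Ctsb held 85945 counts over all libraries against 21642 for Fdft1.

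Hmgcs1, the synthase that forms HMG-CoA and the gene with the sterol element shown above, had 1574, 1743, 1939 and 1431 CPM in vehicle oral and 1272, 1244, 1325 and 1442 CPM in IL-23 oral libraries. The groups touch, because IL-23 library 68 lay above vehicle library 51. The oral fall of -0.34 ± 0.12 (edgeR adjusted p = 0.0235) was lost without vehicle library 27 or 33 or IL-23 library 14 or 24, with adjusted p up to 0.0916. In intraperitoneal mice its level went from 1489 ± 229 to 1382 ± 167 CPM (edgeR adjusted p = 0.461). Over the mean of both routes Hmgcs1 was called lower (-0.22 ± 0.09, edgeR adjusted p = 0.0282), a call lost with RLE scaling, with no count filter and without any of 6 single libraries (vehicle 27, 33 or 50 or IL-23 14, 24 or 28), and without library 28 the value was -0.16 (edgeR adjusted p = 0.0867). Mvd and Idi1, whose enzymes make and isomerise the first isoprene unit, passed in neither route, with log2 fold changes of -0.23 ± 0.15 and -0.09 ± 0.15 for Mvd and -0.09 ± 0.17 and -0.07 ± 0.17 for Idi1.

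In the second stretch, from squalene to cholesterol, 2 of 10 genes rose and 4 fell in oral mice, and 3 rose and 3 fell in intraperitoneal mice. The largest fall was in Msmo1 (ID 66234, chromosome 8, 64718123 to 64733578), which encodes the oxidase that removes the methyl groups at carbon 4 of the sterol ring. It had 1184, 1270.1, 1461 and 1058 CPM in vehicle oral and 793, 693, 751 and 817 CPM in IL-23 oral libraries. With intraperitoneal dosing it had 980.1, 1207, 1013 and 1120.0 CPM with vehicle and 760.0, 586, 817 and 752 CPM with IL-23. All 8 IL-23 libraries lay under all 8 vehicle libraries, and the level was 1.63-fold lower in oral and 1.48-fold lower in intraperitoneal mice. In the fit Msmo1 had log2 fold changes of -0.70 ± 0.12 (edgeR adjusted p = 5.65e-05) and -0.57 ± 0.12 (edgeR adjusted p = 0.000461).

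The partners of that oxidase in removing the carbon 4 methyl groups also fell in oral mice. Nsdhl, the sterol dehydrogenase of the step, went from 123 ± 16.1 to 90.6 ± 5.20 CPM (edgeR adjusted p = 0.000566), with no overlap between the groups. Its intraperitoneal change, from 110.1 ± 9.42 to 96.6 ± 7.43 CPM, did not pass (edgeR adjusted p = 0.0847). With upper-quartile scaling or plain library size Nsdhl was called lower there too. Hsd17b7, the ketoreductase of the step, fell from 329.8 ± 93.2 to 219.7 ± 16.5 CPM in oral (edgeR adjusted p = 0.00577) and from 315 ± 43.6 to 226 ± 41.6 CPM in intraperitoneal mice (edgeR adjusted p = 0.0204). The intraperitoneal log2 fold change of Hsd17b7 was -0.48 ± 0.17, and its call was lost without vehicle library 50 or 59 or IL-23 library 28 (-0.35, edgeR adjusted p = 0.0659 without library 28).

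Ebp and Sc5d, which act after those steps, rose. Ebp (ID 13595, chromosome X, 8185329 to 8193512) encodes the isomerase that moves the ring double bond, and had 73.5, 74.9, 86.3 and 56.2 CPM in vehicle oral and 145, 132, 136 and 127 CPM in IL-23 oral libraries. The intraperitoneal values were 64.3, 81.7, 68.1 and 71.3 CPM with vehicle and 167, 98.1, 124 and 125 CPM with IL-23. Every IL-23 library lay above every vehicle library, at 1.85-fold and 1.80-fold the vehicle level. The log2 fold changes of Ebp were 0.89 ± 0.14 (edgeR adjusted p = 3.49e-05) and 0.85 ± 0.14 (edgeR adjusted p = 6.49e-05).

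Sc5d (ID 235293, chromosome 9, 42251592 to 42264300), the desaturase that acts on the product of that isomerase, had 54.6, 47.1, 61.1 and 56.8 CPM in vehicle oral and 88.2, 84.7, 107 and 88.6 CPM in IL-23 oral libraries. The intraperitoneal values were 63.0, 61.0, 66.6 and 61.4 CPM with vehicle and 140.3, 79.7, 92.6 and 118 CPM with IL-23. Here too the agents did not overlap, and library 25 was the highest of all. Sc5d had log2 fold changes of 0.74 ± 0.14 (edgeR adjusted p = 0.000168) and 0.77 ± 0.14 (edgeR adjusted p = 0.000138).

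Both enzymes that open this stretch were called in 1 route alone. Sqle, the squalene epoxidase, rose from 352 ± 39.9 to 492 ± 81.1 CPM in intraperitoneal mice (edgeR adjusted p = 0.0041), and its oral log2 fold change was 0.16 ± 0.13 (edgeR adjusted p = 0.299). Lss, the cyclase that closes the sterol rings, fell from 239 ± 57.0 to 174 ± 11.2 CPM in oral mice (edgeR adjusted p = 0.0198), and its intraperitoneal log2 fold change was -0.34 ± 0.16 (edgeR adjusted p = 0.0788). The oral call of Lss was lost without vehicle library 33 or IL-23 library 26. Lss was called lower in intraperitoneal mice without vehicle library 49 or 51, with upper-quartile scaling and with plain library size. Its span overlaps that of the long noncoding RNA gene 4930483K19Rik by 11269 bases, though that gene held 244 counts over all libraries against 31430 for Lss. Tm7sf2, a sterol reductase gene, fell from 25.7 ± 5.17 to 18.2 ± 5.03 CPM in intraperitoneal mice (edgeR adjusted p = 0.0251), a call lost without vehicle library 50 or 67 or IL-23 library 25 or 28 and in a fit of the intraperitoneal groups alone. Its intraperitoneal log2 fold change was -0.50 ± 0.18, and without library 28 it was -0.31 (edgeR adjusted p = 0.0981). Cyp51, the demethylase at carbon 14, and Dhcr7, a late reductase of the chain, did not pass in either route, with log2 fold changes of 0.10 ± 0.15 and 0.09 ± 0.15 for Cyp51 and 0.01 ± 0.17 and -0.08 ± 0.17 for Dhcr7.

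Because rises and falls stood side by side, the ratio of a pair of genes within each library was also taken, here and for the genes below, for pairs chosen after their values were seen and hence with no test. The log2 ratio of Ebp to Msmo1 counts was -4.24 to -3.89 over the 8 vehicle libraries and -2.71 to -2.19 over the 8 IL-23 libraries, a difference of 1.60 in oral and 1.40 in intraperitoneal mice. The log2 ratio of Mvk to Acat2 changed sign, from -0.79 to -0.41 in vehicle to 0.25 to 0.76 in IL-23 libraries. For Sqle to Lss, successive enzymes, the ranges were 0.53 to 0.91 and 1.07 to 1.70. In none of these 3 ratios did any IL-23 library reach the vehicle range. A ratio of counts also carries the lengths of both transcripts, so its change, not its level, is of use.

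**Figure D3:**
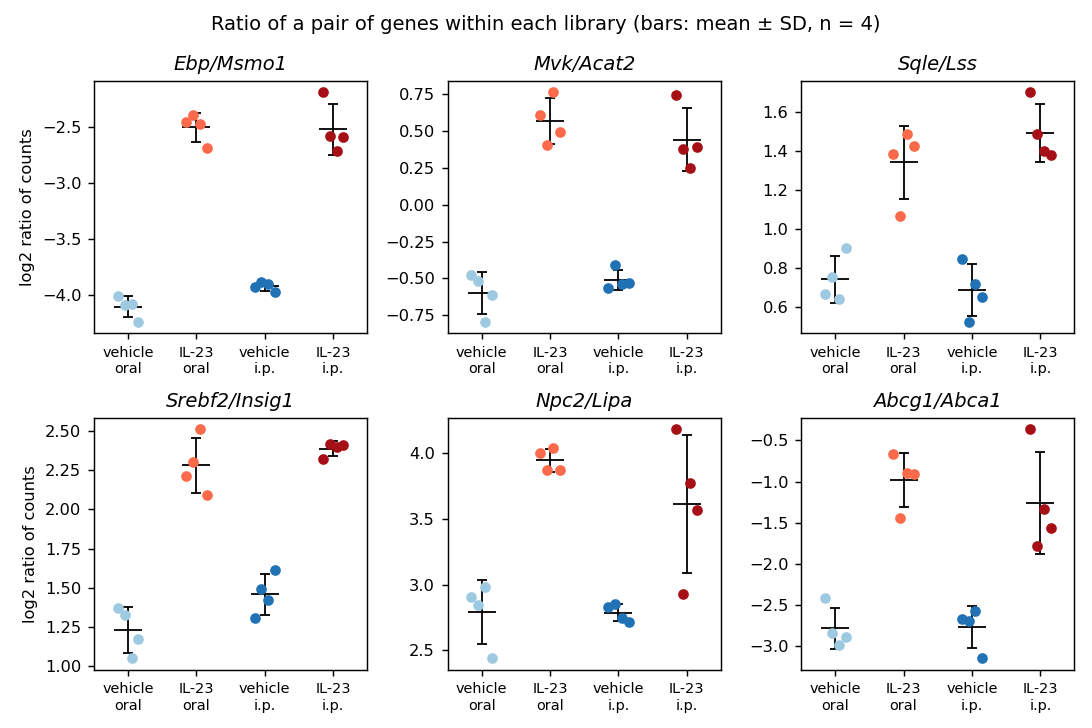
Log2 ratio of the counts of a pair of genes within each of the 16 libraries (points, 4 per group), with the group mean and SD (bars), for 6 pairs. In each panel the IL-23 libraries lie above the vehicle libraries of their route, for example -2.51 ± 0.17 against -4.01 ± 0.12 for Ebp/Msmo1 (mean ± SD, n = 8 each).

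The 18 enzymes also varied together from library to library within a group, apart from the agent. In vehicle oral mice, library 33 held the highest value of the 4 for 17 of the 18 enzymes and library 51 the lowest for 16. In vehicle intraperitoneal mice, library 50 was highest for 15 and library 49 lowest for 14, and in IL-23 intraperitoneal mice library 28 was lowest for all 18. The IL-23 oral libraries showed no such order, with 2 to 7 highest values each. The mean log2 CPM over the 18 enzymes was 7.66 in library 33, 7.08 in library 51, 7.50 in library 50, 7.10 in library 49 and 6.95 in library 28. The means of the IL-23 oral libraries lay between 7.34 and 7.39.

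Sebaceous gland markers stood in a like order within the vehicle groups. Their summed level was 6324 CPM in library 33 and 4312 CPM in library 51, the highest and lowest of the vehicle oral group. It was 6459 CPM in library 50 and 3854 CPM in library 49, the extremes of the vehicle intraperitoneal group, and 2375 CPM in library 28, the lowest of all 16. The rest of the IL-23 intraperitoneal group did not keep this order, since library 25, highest for 11 of the 18 enzymes with a mean log2 CPM of 7.52, had a sum of 3027 CPM, and library 31 had the highest sum of the group at 3802 CPM. Between agents the orders parted, since the markers' sum was lower in every IL-23 library than in every vehicle library, while the enzyme means of the agents overlapped. Epidermal keratinocyte markers shared part of the enzyme order. Their sum was the lowest of its group in libraries 51 (22165 CPM) and 28 (36772 CPM). It was the highest in libraries 50 (28541 CPM) and 25 (67233 CPM). It departed from the order in library 27, highest of vehicle oral (30016.5 CPM), and library 67, lowest of vehicle intraperitoneal (24808 CPM). TMM factors were the highest of their groups in libraries 51, 49 and 28 and the lowest in 33, 50 and 25. The part of either marker list or of the scaling in the enzyme levels was not tested.

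**Figure D4:**
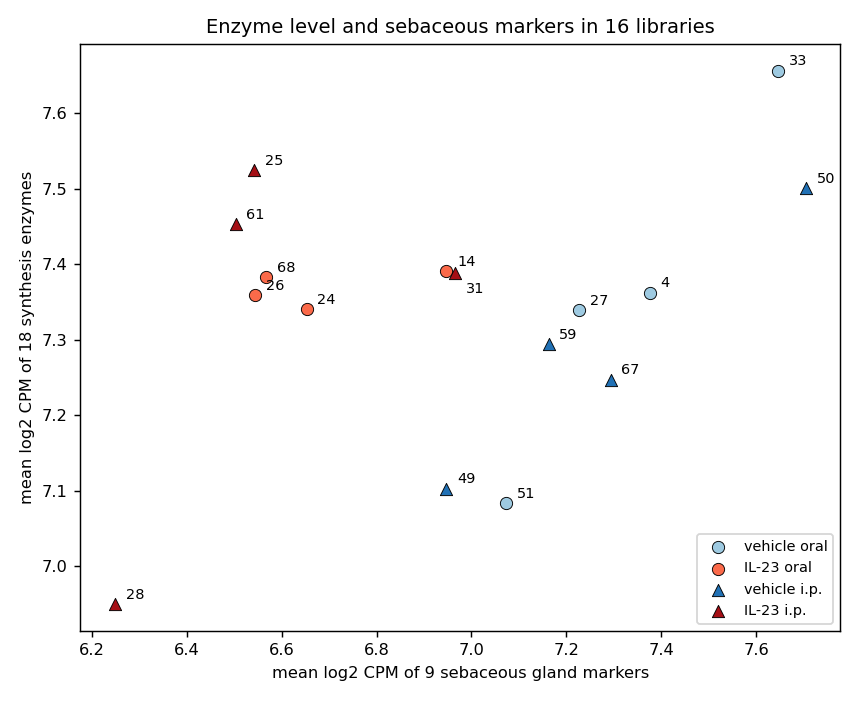
Mean log2 CPM of 9 sebaceous gland markers (horizontal) against that of the 18 synthesis enzymes (vertical) in each of the 16 libraries, labelled by library number, with circles for oral and triangles for intraperitoneal dosing. Vehicle libraries run from 49 and 51 at the lower left to 33 and 50 at the upper right, while the 8 IL-23 libraries lie left of all vehicle libraries but 49, with library 28 lowest in both measures and at an enzyme mean of 6.95.

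Of the 4 SREBP regulators 1 rose and 1 fell in oral mice, and 1 rose and 2 fell in intraperitoneal mice. Srebf2 rose and Insig1 fell in both routes, and Insig2 fell in intraperitoneal mice. Srebf2 (ID 20788, chromosome 15, 82147269 to 82205379) had 267, 264, 253 and 233 CPM in vehicle oral and 336, 331, 348 and 359 CPM in IL-23 oral libraries. In the intraperitoneal groups it had 231, 281, 276 and 256 CPM with vehicle and 419, 323, 367 and 367 CPM with IL-23. All IL-23 libraries lay above all vehicle libraries, and the log2 fold changes were 0.43 ± 0.08 (edgeR adjusted p = 0.000284) and 0.50 ± 0.08 (edgeR adjusted p = 8.88e-05). Scap, the escort of SREBP, had 174 to 218 CPM over the vehicle and 180.3 to 228 CPM over the IL-23 libraries, with log2 fold changes of 0.14 ± 0.08 and 0.04 ± 0.08 that did not pass, and of -0.05 and -0.18 with plain library size. Over the mean of both routes Scap was 0.09 ± 0.06 (edgeR adjusted p = 0.174), and it was called higher without library 28 (0.14, edgeR adjusted p = 0.0366).

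Insig1 (ID 231070, chromosome 5, 28071412 to 28078662), itself a classical SREBP target as well as the retention factor, had 103, 105, 122 and 103 CPM in vehicle oral and 72.4, 67.0, 61.0 and 84.1 CPM in IL-23 oral libraries. The intraperitoneal values were 93.4, 99.8, 103 and 83.7 CPM with vehicle and 83.8, 60.4, 69.7 and 69.0 CPM with IL-23. The oral groups did not overlap, and the intraperitoneal groups met at vehicle library 67 and IL-23 library 25. Insig1 fell by 0.61 ± 0.11 on the log2 scale in oral (edgeR adjusted p = 0.000128) and by 0.43 ± 0.11 in intraperitoneal mice (edgeR adjusted p = 0.00274). The log2 ratio of Srebf2 to Insig1 counts was 1.05 to 1.61 in the vehicle and 2.09 to 2.51 in the IL-23 libraries. Insig2, the second retention factor, fell in intraperitoneal mice from 114 ± 12.7 to 93.4 ± 10.5 CPM (edgeR adjusted p = 0.0115), a log2 fold change of -0.29 ± 0.09 that was not called without IL-23 library 28 (-0.19, edgeR adjusted p = 0.063), and its oral log2 fold change was -0.13 ± 0.09 (edgeR adjusted p = 0.205).

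Of the genes for uptake, the lysosome and transfer, 3 of 5 fell and 1 rose in oral mice, and 1 fell and 1 rose in intraperitoneal mice. The largest fall of all 33 genes was that of Vldlr (ID 22359, chromosome 19, 27216480 to 27254231), a receptor that takes up triglyceride-rich lipoproteins. It had 122, 131, 119 and 125 CPM in vehicle oral and 33.7, 48.1, 40.5 and 54.8 CPM in IL-23 oral libraries. With intraperitoneal dosing it had 124, 98.3, 97.9 and 116 CPM with vehicle and 37.1, 35.2, 40.8 and 46.9 CPM with IL-23. The highest IL-23 library was well under the lowest vehicle library, and the level was 2.79-fold lower in oral (edgeR adjusted p = 7.13e-08) and 2.74-fold lower in intraperitoneal mice (edgeR adjusted p = 1.24e-07). The log2 fold changes were -1.48 ± 0.13 and -1.45 ± 0.13. Adipocyte and skeletal muscle markers, tissues in which Vldlr is also expressed, fell as given above, and their part in this change was not tested.

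Of the lysosomal genes, Npc2 rose in both routes while Lipa and Npc1 fell in oral mice. Lipa (ID 16889, chromosome 19, 34492316 to 34527474), the acid lipase that frees cholesterol from esters, had 22.1, 23.3, 23.3 and 33.3 CPM in vehicle oral and 12.8, 14.6, 14.2 and 14.8 CPM in IL-23 oral libraries, without overlap (-0.85 ± 0.28, edgeR adjusted p = 0.0136). The oral call was lost without vehicle library 51 (-0.67, edgeR adjusted p = 0.0572). In the intraperitoneal groups it had 24.2, 24.4, 23.3 and 24.7 CPM with vehicle and 11.8, 42.1, 14.4 and 19.1 CPM with IL-23. Library 28 stood above every other library at 42.1 CPM, while the 3 other IL-23 libraries lay below all vehicle libraries of that route. The intraperitoneal log2 fold change was -0.13 ± 0.27 (edgeR adjusted p = 0.697) with library 28 and -0.66 (edgeR adjusted p = 0.00146) without it. The summed macrophage markers were 893 CPM in library 28, against 223 to 326 CPM in the 3 other libraries of its group, and their part in its Lipa level was not tested.

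Npc2 (ID 67963, chromosome 12, 84754559 to 84773112), the soluble protein that hands cholesterol over inside the lysosome, had 166, 167, 184 and 180.4 CPM in vehicle oral and 205, 214, 234 and 216 CPM in IL-23 oral libraries. The intraperitoneal values were 172, 176, 157 and 162 CPM with vehicle and 215, 321, 197 and 226 CPM with IL-23, and every IL-23 library exceeded every vehicle library. The log2 fold changes were 0.32 ± 0.11 (edgeR adjusted p = 0.0223) and 0.52 ± 0.11 (edgeR adjusted p = 0.000828), and without library 28 the second was 0.37 (edgeR adjusted p = 0.000364). The oral call was lost with upper-quartile scaling, with plain library size (0.12, edgeR adjusted p = 0.429) and without vehicle library 4 or 27 or IL-23 library 26. Npc1, the membrane partner that accepts this cholesterol, fell in oral mice from 78.2 ± 6.47 to 64.0 ± 2.19 CPM (edgeR adjusted p = 0.00222) and had 79.9 ± 3.44 and 74.0 ± 5.48 CPM in intraperitoneal mice (edgeR adjusted p = 0.203). With upper-quartile scaling or plain library size Npc1 was called lower in intraperitoneal mice too. Its span overlaps that of Rmc1 by 8982 bases, and since the strand setting of the counting is not given, reads of the overlap may be shared. Rmc1 held 5429 counts over all libraries against 11320 for Npc1. Stard4, a carrier of sterol between membranes, passed in neither route (-0.09 ± 0.13 in oral and 0.26 ± 0.13 in intraperitoneal mice), though it was called higher in intraperitoneal mice without vehicle library 59, IL-23 library 31 or IL-23 library 28 (0.33, edgeR adjusted p = 0.0362 without library 28).

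Of the 6 genes for efflux, storage and LXR, 2 rose and 3 fell in each route, and the efflux pumps moved in opposite directions. Abca1 (ID 11303, chromosome 4, 53030789 to 53159988), which loads cholesterol onto lipid-poor apolipoproteins, had 216, 218, 229.5 and 211 CPM in vehicle oral and 74.6, 99.0, 105 and 96.8 CPM in IL-23 oral libraries. In the intraperitoneal groups it had 190.0, 206, 176 and 242 CPM with vehicle and 73.8, 143, 97.2 and 134 CPM with IL-23. The agents did not overlap, and the level was 2.33-fold lower in oral and 1.82-fold lower in intraperitoneal mice. On the log2 scale Abca1 changed by -1.22 ± 0.16 (edgeR adjusted p = 7.02e-06) and -0.86 ± 0.16 (edgeR adjusted p = 0.000224).

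Abcg1 (ID 11307, chromosome 17, 31057694 to 31117984), which passes cholesterol on to mature lipoprotein particles, had 40.3, 30.3, 28.9 and 28.3 CPM in vehicle oral and 47.1, 36.5, 56.1 and 51.6 CPM in IL-23 oral libraries. The intraperitoneal values were 29.8, 31.8, 29.6 and 27.2 CPM with vehicle and 57.4, 41.5, 38.6 and 45.1 CPM with IL-23. Only vehicle oral library 4 reached into the IL-23 range. The log2 fold changes of Abcg1 were 0.58 ± 0.14 (edgeR adjusted p = 0.00219) and 0.62 ± 0.15 (edgeR adjusted p = 0.00147), and the log2 ratio of Abcg1 to Abca1 counts went from -3.15 to -2.42 in vehicle to -1.78 to -0.36 in IL-23 libraries.

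Of the LXR receptors, Nr1h3, which encodes LXR alpha, fell and Nr1h2, which encodes LXR beta, was not called. Nr1h3 (ID 22259, chromosome 2, 91184061 to 91202829) had 11.5, 13.8, 11.3 and 11.5 CPM in vehicle oral and 5.75, 6.76, 4.95 and 8.08 CPM in IL-23 oral libraries. The intraperitoneal values were 9.22, 11.5, 11.7 and 8.41 CPM with vehicle and 2.92, 7.50, 5.11 and 2.98 CPM with IL-23. All IL-23 libraries lay under all vehicle libraries, with log2 fold changes of -0.90 ± 0.24 (edgeR adjusted p = 0.00328) and -1.10 ± 0.25 (edgeR adjusted p = 0.00101). For Nr1h2 the log2 fold changes were -0.06 ± 0.06 (edgeR adjusted p = 0.393) and -0.07 ± 0.06 (edgeR adjusted p = 0.364), and its libraries ranged over 90.3 to 104 CPM with vehicle and 85.1 to 95.7 CPM with IL-23. With plain library size Nr1h2 was called lower in both routes (-0.26 and -0.28).

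Soat1, the acyltransferase that stores cholesterol as esters, fell from 588 ± 125 to 377 ± 48.5 CPM in oral (edgeR adjusted p = 0.00113) and from 534 ± 70.6 to 332 ± 44.9 CPM in intraperitoneal mice (edgeR adjusted p = 0.000754). It is strongly expressed in sebaceous glands. Of the 9 sebaceous gland markers 6 fell and 1 rose over the mean of both routes, and their part in the fall of Soat1 was not tested. Ch25h (ID 12642, chromosome 19, 34473783 to 34475148), which makes the oxysterol 25-hydroxycholesterol, was the largest rise of the 33. It was counted 1, 15, 7 and 15 times in the vehicle oral and 17, 66, 21 and 33 times in the IL-23 oral libraries. The intraperitoneal counts were 21, 4, 21 and 14 with vehicle and 22, 84, 56 and 23 with IL-23. As CPM, every IL-23 library (2.66 to 9.69) lay above every vehicle library (0.0795 to 1.83), at 4.76-fold the vehicle level in oral (2.25 ± 0.58, edgeR adjusted p = 0.00278) and 4.65-fold in intraperitoneal mice (2.22 ± 0.54, edgeR adjusted p = 0.00189). Macrophages are a known source of this enzyme, and library 28 with the highest macrophage marker sum also held the highest Ch25h level. Library 26, with the next highest sum at 356 CPM, held the lowest Ch25h level of the IL-23 libraries at 2.66 CPM. The part of these cells was not tested. Without library 28 the intraperitoneal log2 fold change was 1.89 (edgeR adjusted p = 0.0052).

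**Figure D5:**
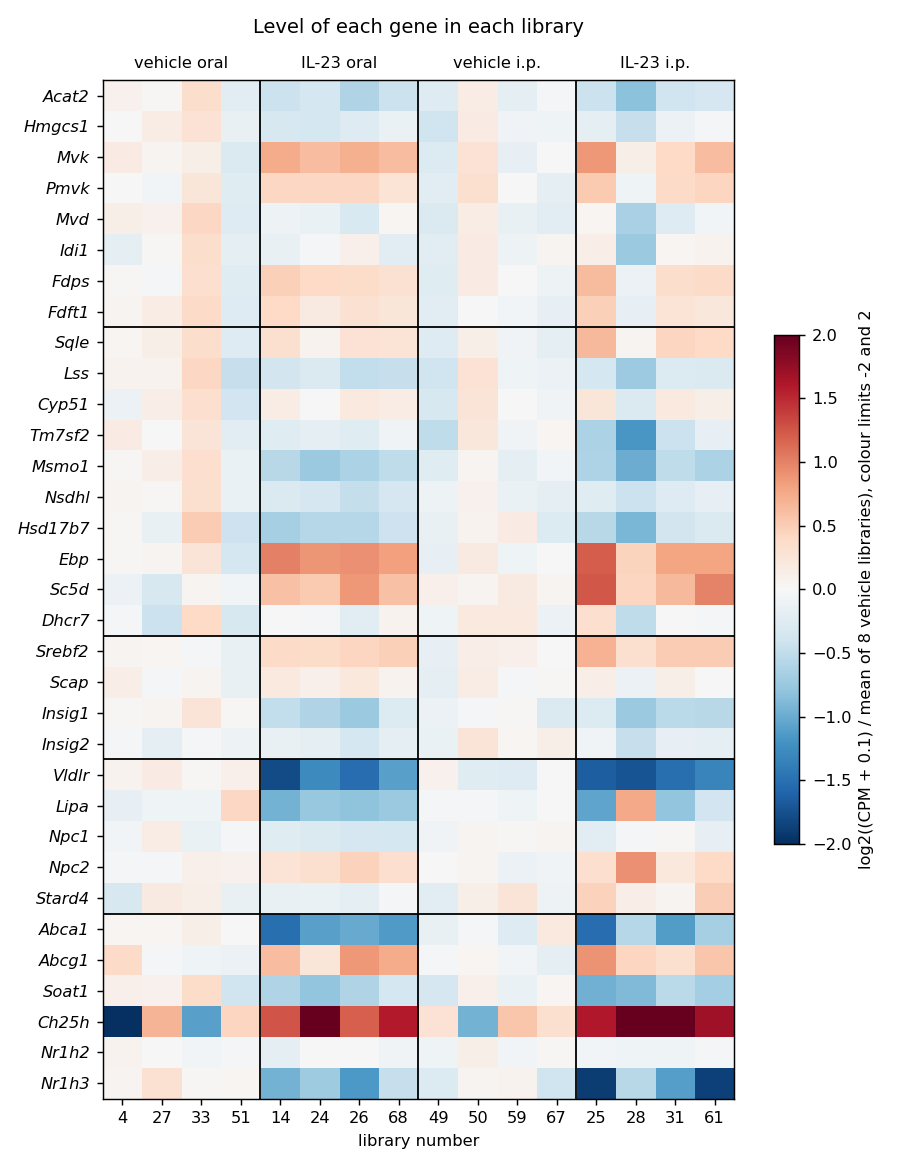
Level of each of the 33 genes (rows, in pathway order) in each of the 16 libraries (columns, by group and library number), as log2 of CPM plus 0.1 over the mean of the 8 vehicle libraries, with colours ending at -2 and 2. Vldlr, Abca1 and Nr1h3 are lower (blue) and Ebp, Sc5d, Srebf2 and Ch25h higher (red) in all 8 IL-23 libraries than in any vehicle library, and library 28 is bluer than its group along the enzymes.

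Set against one another, the 18 synthesis enzymes had smaller changes than the 15 other genes. The median absolute log2 fold change was 0.362 for the enzymes and 0.579 for the others in oral mice, and 0.360 and 0.500 in intraperitoneal mice, against 0.487 and 0.463 over all genes. These medians are a description with no test between the groups. Over the mean of both routes 7 enzymes rose, 7 fell and 4 did not pass, while 4 of the 15 others rose, 8 fell and 3 did not pass, on a background of 73.6% of all genes called, 34.9% higher and 38.7% lower. No enzyme changed by as much as 2-fold over both routes, and among the others Vldlr, Abca1 and Ch25h did, with Nr1h3 at the edge (-0.9997 on the log2 scale).

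Genes outside the 33 that serve the same pathway were read from 3 further lists. Among 8 genes of SREBP processing and sterol sensing, 1 rose and 5 fell over the mean of both routes, so that 75% were called, against the background of 73.6% of all genes. Srebf1, which encodes the SREBP that favours fatty acid genes and is an LXR target, fell from 503 ± 54.3 to 312 ± 39.4 CPM (SD, n = 8 each, -0.69 ± 0.08, edgeR adjusted p = 1.05e-06). Erlin1, a sterol-binding membrane protein gene, rose from 111 ± 5.28 to 141 ± 10.8 CPM (edgeR adjusted p = 5.40e-06).

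Among 14 genes of sterol transport, esters and oxysterols, 3 rose and 6 fell, or 64.3% against that 73.6%. Cyp7b1, whose enzyme hydroxylates 25-hydroxycholesterol, the product of Ch25h, rose from 4.36 ± 1.79 to 60.9 ± 14.2 CPM (3.81 ± 0.20, edgeR adjusted p = 9.27e-11). Lrp8, a receptor of the same family as Vldlr, rose from 7.61 ± 1.38 to 17.9 ± 3.39 CPM (1.24 ± 0.13, edgeR adjusted p = 2.96e-07). Gramd1b, a carrier of cholesterol from the plasma membrane, fell from 6.17 ± 0.844 to 2.09 ± 0.526 CPM (-1.56 ± 0.15, edgeR adjusted p = 5.55e-08), and Lpcat3, a phospholipid-remodelling LXR target, from 283 ± 41.1 to 158 ± 18.5 CPM (-0.84 ± 0.07, edgeR adjusted p = 2.83e-08). Among 8 genes of the branches that draw isoprenoids away from sterols, 2 rose and 2 fell, or 50% against 73.6%. Nus1, a subunit of the enzyme that makes dolichol chains, rose from 152 ± 18.2 to 222 ± 22.2 CPM (edgeR adjusted p = 9.65e-06), and Pdss1, which builds the tail of coenzyme Q, from 15.2 ± 3.09 to 21.1 ± 4.31 CPM (edgeR adjusted p = 0.00597). Its partner subunit gene Pdss2 fell from 11.8 ± 2.001 to 8.78 ± 0.983 CPM (edgeR adjusted p = 0.00175), as did Ggps1, which makes geranylgeranyl diphosphate, from 21.0 ± 2.12 to 16.1 ± 2.35 CPM (edgeR adjusted p = 0.000987).

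The dosing route alone moved none of the 33 genes past the threshold. Between intraperitoneal and oral mice 0 of 33 were called with vehicle and 0 with IL-23 by edgeR, and 0 by DESeq2 and by limma-voom, on a background of 0% of all genes in both comparisons by edgeR. At an unadjusted p under 0.05 the counts were 0 of 33 with vehicle and 3 with IL-23, against 7.41% and 12.8% of all genes. Those 3 were Stard4, Npc1 and Lipa, with a higher fitted level in the intraperitoneal IL-23 group. For Lipa this did not hold in every library: among the intraperitoneal IL-23 libraries, 25 (11.8 CPM) lay under all 4 oral ones, 31 (14.4 CPM) lay within their range, and 28 (42.1 CPM) lay farthest above it.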

How the data were processed

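Libraries of 16 mouse samples were made with a stranded total RNA kit and sequenced on an Illumina instrument, per the labels' protocols. The submitters' processing notes name STAR, FastQC, genome GRCm38, Subread 1.5.0 and featureCounts. For the annotation release, the strand setting and reads mapping to several places, the sources used here give nothing. The table as deposited holds raw counts per gene, whole numbers that the authors left unscaled as far as the values show.

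The test was that of edgeR 4.0.16 in R 4.3.3 (TMM factors, filterByExpr with a minimum count of 10, a quasi-likelihood fit of 4 group means with 12 residual degrees of freedom). All tests were 2-sided, and p-values of the 14671 genes were adjusted together by the Benjamini-Hochberg method. Each SE is the log2 fold change, unsigned, divided by the root of its F statistic. CPM values use TMM-scaled library sizes. The scripts were tested on simulated data. Alternatives were other scalings, filters, DESeq2 1.42.0, limma-voom (limma 3.58.1), fits of only the groups compared, and leaving out each library.

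All 33 genes are named, and of each further pathway list up to 2 called genes with the largest rise and 2 with the largest fall over both routes, with 1 CPM or more on average in the agent where it was higher. One gene that this rule names is not reported here. The 33 genes and all lists were chosen with earlier results of these data known. Among 120 pairs of libraries none held identical values. Gene positions and promoter windows are RefSeq's on GRCm38.p6.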

Additional observations from a re-analysis of the deposited data

Results flagged for a closer look

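Of 132 groups of 4 libraries (33 genes in 4 groups), 7 had a highest or lowest library far from the other 3, where chance flags about 5%. In vehicle oral libraries, Insig1 reached 122 CPM in library 33 with the next at 105, Lipa 33.3 CPM in library 51 with the next at 23.3, Abcg1 40.3 CPM in library 4 with the next at 30.3, and Nr1h3 13.8 CPM in library 27 with the next at 11.5. In IL-23 oral libraries, Pmvk was 170.0 CPM in library 68 with the next at 187, and Ch25h was 7.97 CPM in library 24 with the next at 3.51. In IL-23 intraperitoneal libraries, Idi1 was 13.4 CPM in library 28 with the next at 23.2. Without library 28 the intraperitoneal log2 fold change of Idi1 was 0.13 (edgeR adjusted p = 0.424), against -0.07 ± 0.17 with it. The causes of these single values were not tested.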

How the results depend on the processing

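No paired analysis was possible because the groups share no replicate number. Members called ranged over 19 to 22 in oral mice, 17 to 22 in intraperitoneal mice and 24 to 26 over both routes when each library was left out. Of the 22, 21 and 26 called, 16, 15 and 20 stayed called in the same direction under every setting run. With plain library size, 17 members were called lower in intraperitoneal mice against 10, and 7 higher over both routes against 11. That setting also turned Scap to -0.18 in intraperitoneal mice (edgeR adjusted p = 0.0375) and -0.12 over both routes (edgeR adjusted p = 0.044), from values near 0. It shifted the median of all genes by -0.21 over both routes. With DESeq2, 1 gene differed in the IL-23 effect between routes, 1 between routes with vehicle and 57 between routes with IL-23 (45 higher and 12 lower in intraperitoneal mice), against 0 by edgeR, and none was among the 33. The cause of these changes was not tested. A fit of only the groups compared does not apply to the mean of both routes or to the difference. Depth limits Ch25h most, at 1 to 21 counts per vehicle library.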
